A study of Homo sapiens with 6 samples.

Results

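The 46 genes of centrosomes and centrioles described here were chosen by symbol, as genes of centriole duplication, the pericentriolar material, the CEP family and augmin, out of 57773 Ensembl gene IDs in the deposited table. All 46 were found. They were compared between RPE1 cultures kept for 24 h in 2.5 µM Nutlin-3 (3 RNA-seq libraries) and cultures kept as long in the solvent DMSO (3 libraries). RPE1 is an immortalised line derived from human retinal pigment epithelium, and the labels name no genetic change in either group. Nutlin-3 blocks the pocket of MDM2 that holds p53, so that p53 accumulates, and the series sets out to find p53-dependent genes. The labels call the libraries of a group replicates without saying whether they came from separate cultures, so the p-values rest on a spread that may be no more than technical. In such bulk samples, fewer cells in S phase or mitosis and less RNA per cell cannot be told apart.

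Centrosomes organise microtubules, and each is built around a pair of centrioles that are copied when DNA is copied. A cartwheel of SASS6 and STIL, started by the kinase PLK4, seeds each new centriole, CENPJ and its partners lengthen it, and CCP110 and CEP97 cap it. Pericentriolar material around the centrioles holds the gamma-tubulin rings from which microtubules grow, appendages on the mother centriole anchor microtubules and the primary cilium, and augmin (the HAUS complex) adds gamma-tubulin rings along spindle microtubules during mitosis.

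The reads behind the deposited values numbered 32.8 to 38.3 M in the Nutlin-3 libraries and 29.5 to 42.6 M in the DMSO libraries. Each of the 46 genes had between 143 and 8027 reads in every library. CDKN1A, the p53 target that encodes p21, had 205, 220 and 219 RPKM in Nutlin-3 libraries, against 27.9, 29.7 and 31.2 RPKM in DMSO libraries. MDM2, another p53 target, had 23.2, 24.4 and 23.6 RPKM in Nutlin-3 libraries, against 6.26, 6.46 and 6.74 RPKM in DMSO libraries. MKI67, the proliferation antigen Ki-67, had 16.7, 17.0 and 18.2 RPKM in Nutlin-3 libraries, against 65.5, 62.1 and 62.3 RPKM in DMSO libraries. In these 3 genes the groups lay far apart, in the directions that p53 activity and slower proliferation are known for. Of 10 retinal pigment epithelium markers, MITF and OTX2 held nearly all the signal, TTR was listed at 0 in every library, and RPE65, TYR and TYRP1 stayed below 0.1 RPKM. The summed level of the 10 was 14.2 to 15.6 RPKM in Nutlin-3 and 16.1 to 17.3 RPKM in DMSO libraries. The summed level of 3 mesenchymal markers (VIM, CDH2 and COL1A1) was 851 to 902 RPKM in Nutlin-3 and 873 to 963 RPKM in DMSO libraries. VIM held most of that sum, and its groups overlapped. CDH2 averaged 68.1 RPKM in Nutlin-3 and 53.4 RPKM in DMSO libraries. COL1A1 averaged 9.14 RPKM in Nutlin-3 and 5.55 RPKM in DMSO libraries. Both were higher in all Nutlin-3 libraries than in any DMSO library. The summed level of 5 simple epithelial markers was 138 to 146 RPKM in Nutlin-3 and 80.5 to 87.2 RPKM in DMSO libraries. It was carried by KRT8 and KRT18, with CDH1, EPCAM and KRT19 averaging below 0.1 RPKM in each group. The part of these markers in the results below was not tested. Markers of blood (3 genes, with CD3E and HBB at 0) and of endothelium (2 of 3 matched, with CDH5 at 0) summed to under 0.1 RPKM in every library.

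Levels are given as RPKM per exon length, that is, reads counted for a gene per kilobase of its merged exons, scaled to library size. The deposited length included introns and the read counter is not given, so whether all these reads lay in exons is not known. Comparisons of level between genes carry that limit. Log2 fold changes (Nutlin-3 over DMSO) are on log2(RPKM + 0.5), which understates the change of low genes. After Nutlin-3, 40 of the 46 genes fell at an adjusted p under 0.05 by limma, none rose, and 6 did not pass. Over all 17258 genes tested, 25.1% fell and 26.8% rose by the same rule. The median log2 fold change of the 46 genes was -0.65, against 0.01 over all genes tested. In 44 of the 46 genes the Nutlin-3 libraries all lay below the DMSO libraries and in none all above them, which was so for 29.5% and 31.1% of all genes. Falls of at least 0.5 on the log2 scale were called in 27 of the 46 genes (7.56% of all genes) and falls of at least 1 in 10 of them (2.4% of all genes). Summed over the 46 genes the level was 174 to 176 RPKM in Nutlin-3 libraries, against 274 to 288 RPKM in DMSO libraries. Their share of all recovered reads was 0.130% to 0.134% in Nutlin-3 and 0.207% to 0.213% in DMSO libraries. With limma voom on the recovered reads, scaled by the library sizes behind the RPKM, 41 fell and none rose (23.8% and 25.5% of 20697 genes).

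**Figure D1:**
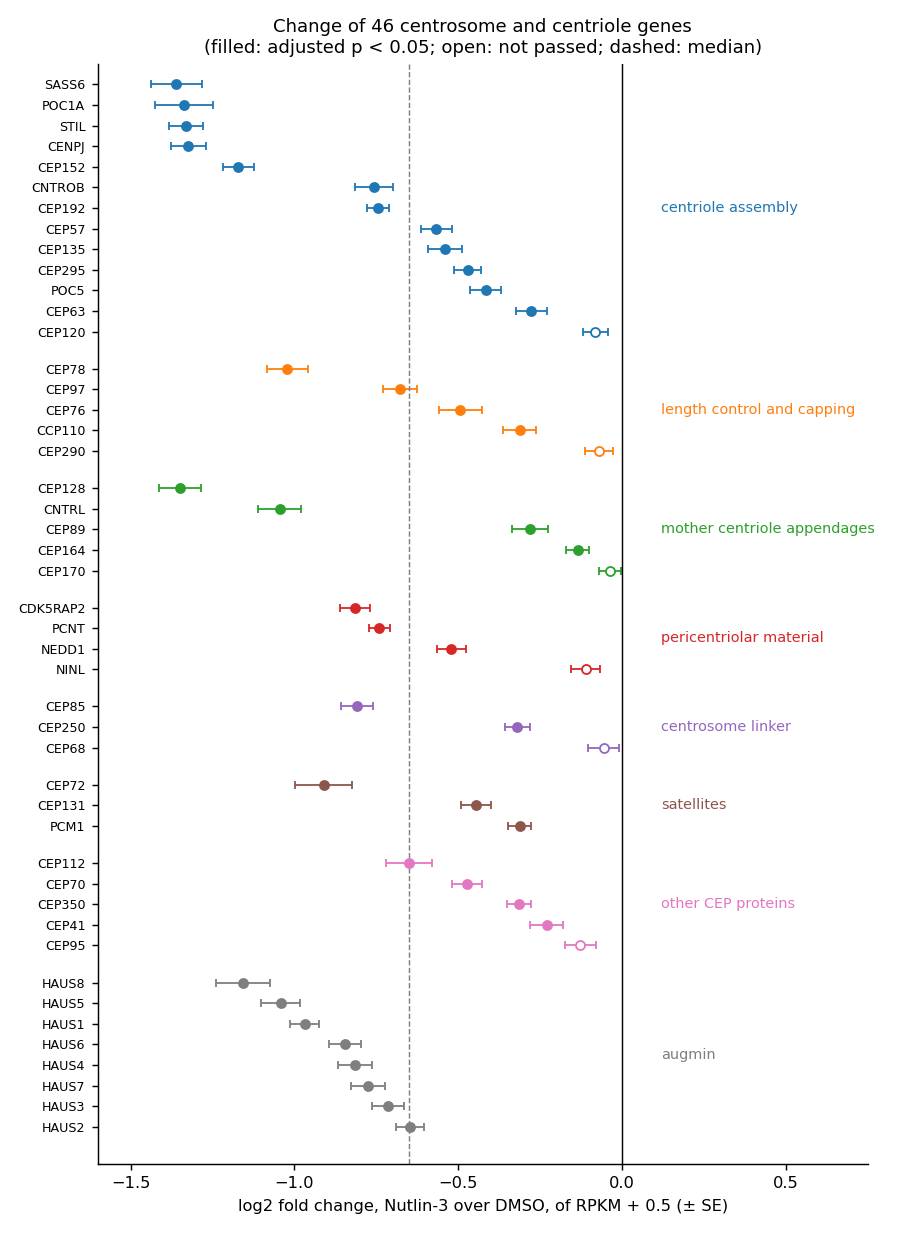
Log2 fold change of each of the 46 genes (x axis, Nutlin-3 over DMSO on log2(RPKM + 0.5), bars ± SE of the limma fit over 3 libraries per group), grouped by role down the page. Filled points passed an adjusted p of 0.05. All 46 points lie below 0, from SASS6 at -1.36 to CEP170 at -0.04, around a median (dashed line) of -0.65, although CEP68 turned to 0.0048 under quantile normalization.

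**Figure D2:**
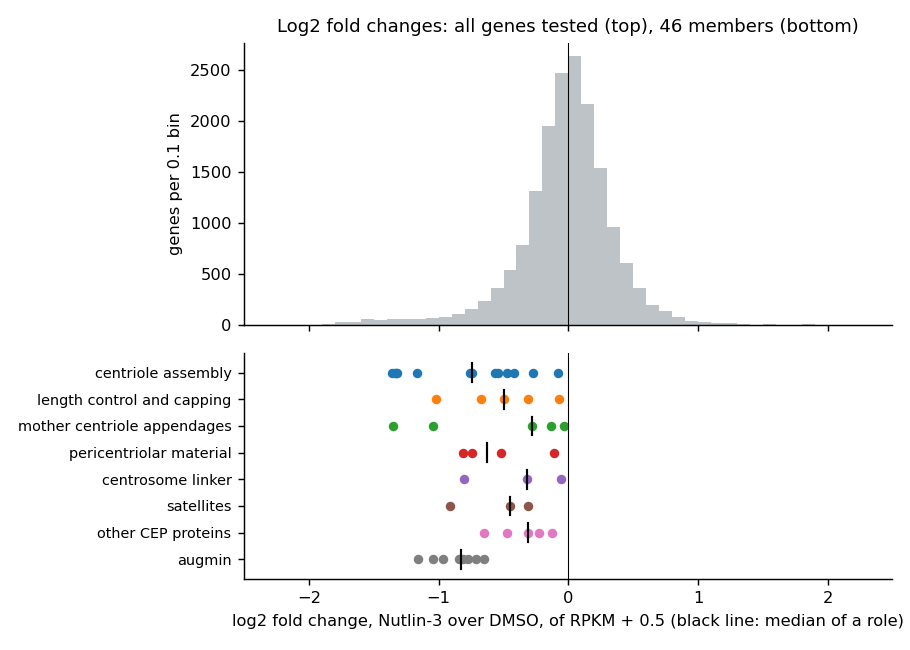
Number of genes per bin of 0.1 in log2 fold change over all 17258 genes tested (top) and the 46 genes by role with the median of each role as a black line (bottom); genes past the ends of the axis are not drawn. The distribution over all genes is centred near 0, with a median of 0.01, whereas the role medians run from -0.83 for augmin to -0.28 for appendage genes.

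Since many of these genes moved together, their promoters were searched for the letters of known cell cycle elements. Windows of 300 bases from RefSeq (250 before to 50 after each listed start, build GRCh38.p14) were held for 43 of the 46 genes, and CEP250, PCM1 and CEP78 were not searched. E2F-site letters (TTCCCGC or TTGGCGC or TTCGCGC or TTGCCGC) stood on either strand in a window of 21 of the 43 genes, against 15.3% of all 27305 genes searched. The CHR, an element of genes bound by the DREAM and MuvB complexes, was searched as TTTGAA or TTCGAA and stood in 14 of the 43, against 19.5% of all genes. CCAAT letters stood in 20, against 39.7%, and TTGGCGC can share letters with a CCAAT box read on the opposite strand. E2F-site and CHR letters in the same window were found in 7 genes (CEP152, CEP192, CEP295, CEP57, CEP76, CEP112 and HAUS8), against 1.71% of all genes. Some genes have several windows, and among the 30 with a single window 12 held E2F-site letters, 8 a CHR and 3 both, against 12.6%, 17.2% and 1.45% of all single-window genes. The p53 half-site stood in 1 of the 43 (CNTRL), against 8.06% of all genes. The shares of all genes cover every gene in the table, whether expressed in these cells or not. Shares among the genes tested here were not computed, so how far the differences are particular to the centrosome genes is not known. A match is letters only, not a site shown to be bound. The median log2 fold change was -0.75 in the 21 genes with E2F-site letters and -0.51 in the others, and it was -0.55 in the 14 genes with a CHR and -0.71 in the others.

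The windows below are those of the 3 largest falls on log2(RPKM + 0.5) (SASS6, CEP128 and POC1A) and of HAUS8 and CEP152, which were picked after the search because a window of each holds both elements. The third place of POC1A depends on the pseudocount. By limma voom it was at -1.42, against -1.59 for HAUS8, -1.56 for STIL, -1.46 for CENPJ and -1.45 for CEP152. Each reads 5′ to 3′ on the strand of the gene, with E2F, CHR and CCAAT letters in capitals. SASS6 (chr1:100132881-100133180, minus strand) holds TTGGCGC on the opposite strand at positions 16 to 22 after the start, and CEP128 (chr14:80941689-80941988, minus strand) holds none of the letters searched. POC1A (chr3:52154374-52154673, minus strand) holds a CCAAT box on the opposite strand from -28 to -24. HAUS8 (chr19:17075403-17075702, minus strand) holds TTTGAA from -14 to -9 and TTCCCGC on the opposite strand from 23 to 29. CEP152 (chr15:48811020-48811319, minus strand) holds TTCCCGC from -203 to -197, TTTGAA on the opposite strand from -179 to -174 and CCAAT boxes on the opposite strand from -242 to -238 and on the strand of the gene from -225 to -221.
SASS6: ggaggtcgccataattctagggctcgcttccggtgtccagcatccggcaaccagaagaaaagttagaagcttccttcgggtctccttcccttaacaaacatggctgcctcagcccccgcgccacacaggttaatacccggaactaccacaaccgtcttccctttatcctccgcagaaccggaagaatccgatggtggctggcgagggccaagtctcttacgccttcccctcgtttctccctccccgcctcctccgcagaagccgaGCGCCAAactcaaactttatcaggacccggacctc
CEP128: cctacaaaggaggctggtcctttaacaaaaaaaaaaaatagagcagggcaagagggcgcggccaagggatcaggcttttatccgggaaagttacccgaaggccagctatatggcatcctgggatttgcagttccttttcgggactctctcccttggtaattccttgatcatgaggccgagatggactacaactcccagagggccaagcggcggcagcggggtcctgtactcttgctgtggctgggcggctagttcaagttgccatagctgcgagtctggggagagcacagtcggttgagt
POC1A: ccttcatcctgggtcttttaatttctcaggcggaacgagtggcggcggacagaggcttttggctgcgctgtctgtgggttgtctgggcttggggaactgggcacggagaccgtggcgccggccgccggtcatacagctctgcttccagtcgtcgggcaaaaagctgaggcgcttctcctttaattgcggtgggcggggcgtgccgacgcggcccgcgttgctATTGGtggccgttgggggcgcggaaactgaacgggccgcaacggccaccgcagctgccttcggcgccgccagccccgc
HAUS8: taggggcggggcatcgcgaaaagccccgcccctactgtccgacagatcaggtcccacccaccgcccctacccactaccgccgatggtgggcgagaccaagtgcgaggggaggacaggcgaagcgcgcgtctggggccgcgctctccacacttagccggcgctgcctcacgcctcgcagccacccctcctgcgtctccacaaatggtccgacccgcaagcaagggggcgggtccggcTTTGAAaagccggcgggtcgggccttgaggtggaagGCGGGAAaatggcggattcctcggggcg
CEP152: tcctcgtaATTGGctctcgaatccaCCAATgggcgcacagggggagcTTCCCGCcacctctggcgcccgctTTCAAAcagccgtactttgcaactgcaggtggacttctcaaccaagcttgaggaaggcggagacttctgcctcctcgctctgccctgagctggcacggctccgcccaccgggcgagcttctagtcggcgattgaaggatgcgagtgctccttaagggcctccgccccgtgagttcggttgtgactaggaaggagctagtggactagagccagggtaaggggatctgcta

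Among the 13 genes of centriole assembly, 12 fell, none rose, and the median log2 fold change was -0.75. SASS6 (ENSG00000156876, chromosome 1), the cartwheel protein that gives the centriole its symmetry, had 1.61, 1.39 and 1.67 RPKM in Nutlin-3 libraries, against 5.03, 4.98 and 4.33 RPKM in DMSO libraries. STIL (ENSG00000123473, chromosome 1), which binds PLK4 and loads SASS6 onto the cartwheel, had 1.87, 1.78 and 1.85 RPKM in Nutlin-3 libraries, against 5.67, 5.07 and 5.39 RPKM in DMSO libraries. CENPJ (ENSG00000151849, chromosome 13), also called CPAP, which adds tubulin to the growing centriole wall, had 3.06, 3.11 and 3.42 RPKM in Nutlin-3 libraries, against 9.19, 8.71 and 8.39 RPKM in DMSO libraries. The lowest DMSO library stood far above the highest Nutlin-3 library in each of these 3 genes, and the Nutlin-3 means were 32.6%, 34.1% and 36.5% of the DMSO means. On the log2 scale SASS6 changed by -1.36 (SE 0.077, adjusted p = 1.27e-05 by limma), STIL by -1.33 (SE 0.0506, adjusted p = 2.79e-06 by limma) and CENPJ by -1.32 (SE 0.053, adjusted p = 3.14e-06 by limma).

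POC1A, a centriole wall protein needed for stable centrioles, was the most abundant of the assembly genes in DMSO and had 5.06, 5.06 and 6.24 RPKM in Nutlin-3 libraries, against 15.3, 14.9 and 13.3 RPKM in DMSO libraries. CEP152, the ring protein that brings PLK4 to the parent centriole, had 1.32, 1.28 and 1.33 RPKM in Nutlin-3 libraries, against 3.69, 3.52 and 3.51 RPKM in DMSO libraries. Both fell in every Nutlin-3 library relative to every DMSO library, with log2 fold changes of -1.34 (SE 0.0873, adjusted p = 2.42e-05 by limma) and -1.17 (SE 0.0469, adjusted p = 3.14e-06 by limma). Nutlin-3 replicate 3 was the highest Nutlin-3 library for POC1A, but stayed far below the lowest DMSO library.

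CNTROB, the daughter centriole protein centrobin, had 4.22, 4.31 and 4.19 RPKM in Nutlin-3 libraries, against 8.22, 7.31 and 7.03 RPKM in DMSO libraries. CEP192, a scaffold that recruits PLK4 together with CEP152 and builds pericentriolar material, had 4.24, 4.14 and 4.13 RPKM in Nutlin-3 libraries, against 7.35, 7.30 and 7.32 RPKM in DMSO libraries. These genes fell by less, to 56.3% and 56.9% of the DMSO mean, which was -0.76 (SE 0.0575, adjusted p = 4.8e-05 by limma) and -0.75 (SE 0.0325, adjusted p = 4.25e-06 by limma) on the log2 scale. CEP57, which forms a ring with CEP63 and CEP152 at the parent centriole, had 4.45, 4.52 and 4.37 RPKM in Nutlin-3 libraries, against 6.94, 6.39 and 7.16 RPKM in DMSO libraries. CEP135, which links the cartwheel to the microtubules of the wall, had 2.30, 2.18 and 2.29 RPKM in Nutlin-3 libraries, against 3.70, 3.31 and 3.52 RPKM in DMSO libraries. Their falls were -0.57 and -0.54 (adjusted p = 7.34e-05 and 0.000144 by limma), again without overlap between the groups.

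The remaining falls in this group were smaller. CEP295, which acts in turning a new centriole into a centrosome, changed by -0.47, POC5, a centrin-binding protein of the centriole lumen, by -0.42, and CEP63, the partner of CEP152, by -0.28 (adjusted p = 7.8e-05, 0.000315 and 0.00212 by limma). CEP120, which promotes centriole elongation with CENPJ, did not pass. It had 3.82, 3.90 and 3.80 RPKM in Nutlin-3 libraries, against 4.13, 3.95 and 4.18 RPKM in DMSO libraries, and its groups did not overlap although the difference was small (-0.08, adjusted p = 0.125 by limma). Exons of CEP295 share 13.9% of their length with genes on the opposite strand, among them TAF1D, and 7.35% of SASS6 is shared with AC093019.2 on the same strand. Whether counting used strand is not given in the sources used here.

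**Figure D3:**
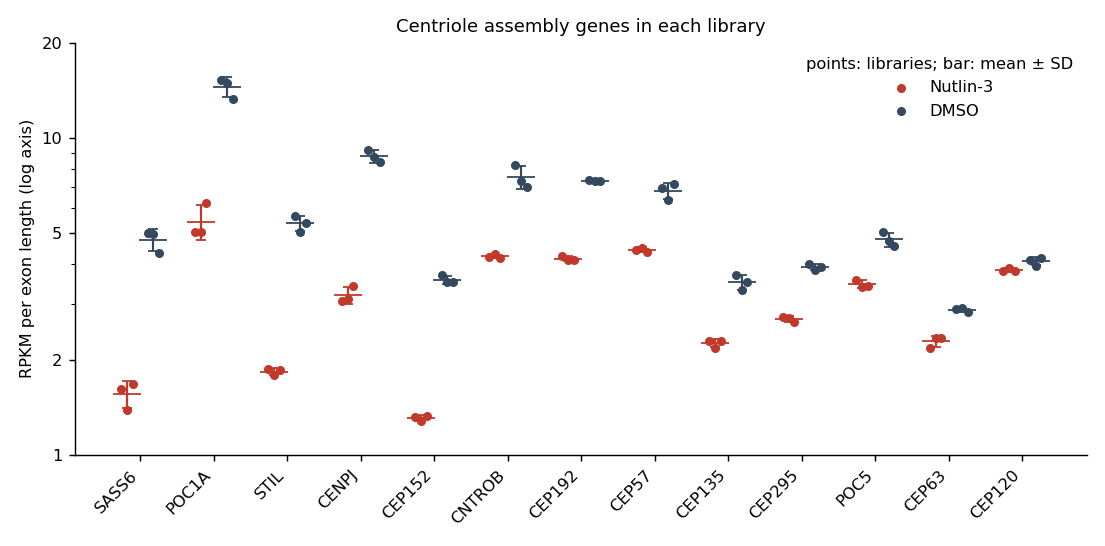
RPKM per exon length (y axis, log scale) of the 13 centriole assembly genes in each library, with Nutlin-3 (red) left of DMSO (dark) and bars for mean ± SD of 3 libraries, ordered by log2 fold change. SASS6, POC1A, STIL, CENPJ and CEP152, at the left, have Nutlin-3 means between 32.6% and 37.6% of the DMSO mean, and CEP120, at the right, has 93.9%.

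Of the 5 genes of centriole capping and length control, 4 fell and CEP290 did not pass, with a median of -0.49. CEP78, a centriole protein that binds a ubiquitin ligase acting on CCP110, showed the largest fall and had 1.62, 1.43 and 1.66 RPKM in Nutlin-3 libraries, against 3.87, 3.50 and 3.73 RPKM in DMSO libraries. CEP97, which caps the distal end together with CCP110, had 2.12, 2.09 and 2.02 RPKM in Nutlin-3 libraries, against 3.73, 3.39 and 3.74 RPKM in DMSO libraries. CEP76, which restrains repeated duplication, had 1.36, 1.32 and 1.28 RPKM in Nutlin-3 libraries, against 2.25, 1.93 and 2.00 RPKM in DMSO libraries. The 3 genes were lower in all Nutlin-3 libraries, with log2 fold changes of -1.02 (SE 0.0621, adjusted p = 1.73e-05 by limma), -0.68 (SE 0.0512, adjusted p = 4.72e-05 by limma) and -0.49 (SE 0.0655, adjusted p = 0.000693 by limma). The cap protein CCP110 fell by less (-0.31, to 78.3% of the DMSO mean, adjusted p = 0.00172 by limma). CEP290, a protein of satellites and of the gate at the base of the cilium, had 4.49, 4.42 and 4.23 RPKM in Nutlin-3 libraries, against 4.80, 4.50 and 4.57 RPKM in DMSO libraries. Its change of -0.07 did not pass (adjusted p = 0.203 by limma).

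Of the 5 genes of mother centriole appendages, 4 fell, with a median of -0.28 and a range from -1.35 to -0.04. CEP128, a subdistal appendage protein, had 0.859, 0.832 and 0.868 RPKM in Nutlin-3 libraries, against 2.70, 3.11 and 3.03 RPKM in DMSO libraries, and fell to 28.9% of the DMSO mean, the lowest percentage of the 46 genes. On the recovered reads, where the added count is small beside its reads, its log2 fold change was -1.78 by limma voom, against -1.35 (SE 0.0648, adjusted p = 6.25e-06 by limma) on RPKM. CNTRL, centriolin, had 1.41, 1.22 and 1.30 RPKM in Nutlin-3 libraries, against 3.48, 3.04 and 3.17 RPKM in DMSO libraries, and changed by -1.04 (adjusted p = 2.1e-05 by limma). CEP89 and CEP164, of the distal appendages, differed less between the groups than CEP128 and CNTRL. That is not a trait of distal appendage genes as a class. SCLT1, FBF1 and CEP83, distal appendage genes outside the 46, changed by -0.75, -0.58 and -0.42. CEP89 had 2.87, 3.21 and 3.17 RPKM in Nutlin-3 libraries, against 3.89, 4.0 and 3.68 RPKM in DMSO libraries, a change of -0.28 (adjusted p = 0.00401 by limma), and CEP164, the appendage protein that docks the mother centriole for cilium formation, changed by -0.13 (adjusted p = 0.0158 by limma). CEP164 no longer passed when Nutlin-3 replicate 3 was left out (adjusted p = 0.0574 by limma) or when the libraries were quantile normalised (0.0918). CEP170, a subdistal appendage protein and the most abundant of the 46 genes, had 17.5, 16.6 and 16.3 RPKM in Nutlin-3 libraries, against 17.4, 17.1 and 17.3 RPKM in DMSO libraries, and its groups overlapped (-0.04, adjusted p = 0.398 by limma).

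In the pericentriolar material, 3 of 4 genes fell, with a median of -0.63. PCNT, pericentrin, the large scaffold of the material, had 5.71, 5.58 and 5.49 RPKM in Nutlin-3 libraries, against 9.76, 9.63 and 9.66 RPKM in DMSO libraries. CDK5RAP2, which anchors and activates gamma-tubulin rings, had 5.24, 4.88 and 4.84 RPKM in Nutlin-3 libraries, against 9.43, 8.73 and 9.32 RPKM in DMSO libraries. NEDD1, which targets gamma-tubulin rings to centrosomes and to augmin, had 9.65, 9.72 and 9.25 RPKM in Nutlin-3 libraries, against 14.7, 13.3 and 13.8 RPKM in DMSO libraries. No library of one group reached the range of the other in these 3 genes, and the log2 fold changes were -0.74 (SE 0.0317, adjusted p = 3.87e-06 by limma), -0.82 (SE 0.0458, adjusted p = 1.21e-05 by limma) and -0.52 (SE 0.0444, adjusted p = 8.11e-05 by limma). NINL, a ninein-like protein that binds gamma-tubulin rings, had 3.45, 3.55 and 3.40 RPKM in Nutlin-3 libraries, against 3.66, 3.74 and 3.95 RPKM in DMSO libraries, and its change of -0.11 did not pass (adjusted p = 0.0668 by limma).

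The linker that holds the centrioles of interphase cells together was represented by 3 genes, of which 2 fell. CEP85, an inhibitor of the linker-cutting kinase NEK2, had 3.96, 4.02 and 4.12 RPKM in Nutlin-3 libraries, against 7.96, 7.27 and 7.11 RPKM in DMSO libraries (-0.81, SE 0.0483, adjusted p = 1.58e-05 by limma). CEP250, also called C-NAP1, which roots the linker on the centrioles, had 6.49, 6.61 and 6.69 RPKM in Nutlin-3 libraries, against 8.69, 8.31 and 8.07 RPKM in DMSO libraries (-0.32, SE 0.0377, adjusted p = 0.000397 by limma). CEP68, a linker fibre protein, had 2.18, 2.11 and 2.13 RPKM in Nutlin-3 libraries, against 2.32, 2.16 and 2.26 RPKM in DMSO libraries, its groups overlapped, and it did not pass (adjusted p = 0.373 by limma). Exons of RAB1A lie opposite 8.78% of the exon length of CEP68. All 3 satellite genes fell, by -0.91 for CEP72, -0.45 for CEP131 and -0.31 for PCM1. PCM1, the scaffold of these granules around the centrosome, had 7.48, 7.52 and 7.52 RPKM in Nutlin-3 libraries, against 9.29, 9.23 and 9.81 RPKM in DMSO libraries. CEP131 had 4.16, 4.11 and 4.50 RPKM in Nutlin-3 libraries, against 6.05, 5.77 and 6.12 RPKM in DMSO libraries, and CEP72, which binds PCM1, had 1.61, 1.93 and 1.59 RPKM in Nutlin-3 libraries, against 3.96, 3.75 and 3.26 RPKM in DMSO libraries. Adjusted p-values by limma were 0.000301 for PCM1, 0.000194 for CEP131 and 0.00014 for CEP72, and 11.04% of the exon length of CEP72 lies opposite exons of TPPP.

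Among the other CEP genes, 4 of 5 fell. CEP112 had 1.44, 1.46 and 1.28 RPKM in Nutlin-3 libraries, against 2.28, 2.66 and 2.46 RPKM in DMSO libraries (-0.65, SE 0.0704, adjusted p = 0.000259 by limma). CEP70, which binds gamma-tubulin and acts in microtubule organisation, had 6.21, 5.66 and 5.61 RPKM in Nutlin-3 libraries, against 8.08, 8.45 and 8.30 RPKM in DMSO libraries (-0.47, SE 0.0459, adjusted p = 0.000151 by limma). CEP350, a large protein that anchors microtubules at the centrosome, had 3.77, 3.82 and 3.77 RPKM in Nutlin-3 libraries, against 4.73, 4.80 and 4.97 RPKM in DMSO libraries (-0.31, SE 0.037, adjusted p = 0.000387 by limma). These 3 genes were lower in all Nutlin-3 libraries than in any DMSO library. CEP41, which acts in glutamylation of ciliary tubulin, changed by -0.23 (adjusted p = 0.0074 by limma). CEP95 had 4.25, 4.42 and 4.17 RPKM in Nutlin-3 libraries, against 4.93, 4.78 and 4.46 RPKM in DMSO libraries, and did not pass on RPKM (-0.13, adjusted p = 0.0571 by limma), but fell on the recovered reads (-0.14, adjusted p = 0.0235 by limma voom) and without DMSO replicate 3 (adjusted p = 0.0268). Exons of DDX5 and SMURF2 lie opposite 8.36% of the exon length of CEP95.

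Augmin was the role group with the lowest median, at -0.83. All 8 subunit genes fell, in a range from -1.16 for HAUS8 to -0.65 for HAUS2. HAUS1 had 6.98, 6.97 and 7.37 RPKM in Nutlin-3 libraries, against 15.3, 14 and 13.9 RPKM in DMSO libraries. HAUS4 had 6.00, 6.43 and 6.74 RPKM in Nutlin-3 libraries, against 12.1, 11.7 and 11 RPKM in DMSO libraries. HAUS6, the subunit that binds NEDD1 and so the gamma-tubulin ring, had 3.86, 3.92 and 4.28 RPKM in Nutlin-3 libraries, against 7.94, 7.41 and 7.50 RPKM in DMSO libraries. In these 3 genes, HAUS1 and HAUS4 being the most abundant subunit genes per exon length, Nutlin-3 means were 49.4%, 55.0% and 52.8% of the DMSO means (adjusted p = 5.69e-06, 2.29e-05 and 1.42e-05 by limma). HAUS2 had 4.45, 4.49 and 4.41 RPKM in Nutlin-3 libraries, against 7.67, 6.98 and 7.14 RPKM in DMSO libraries. HAUS5 had 2.03, 1.87 and 2.00 RPKM in Nutlin-3 libraries, against 4.96, 4.33 and 4.45 RPKM in DMSO libraries. HAUS3 had 1.97, 2.02 and 2.14 RPKM in Nutlin-3 libraries, against 3.75, 3.75 and 3.52 RPKM in DMSO libraries. The spread within each group was small beside the difference in all of them, and adjusted p-values by limma were 2.49e-05, 1.33e-05 and 3.06e-05. HAUS7 had 1.46, 1.43 and 1.41 RPKM in Nutlin-3 libraries, against 2.95, 2.77 and 2.71 RPKM in DMSO libraries, a change of -0.78 (adjusted p = 2.53e-05 by limma). HAUS8, the subunit that binds the microtubule, had 0.830, 0.722 and 0.898 RPKM in Nutlin-3 libraries, against 2.60, 2.52 and 2.19 RPKM in DMSO libraries, the lowest level of the 8 and, at 33.5% of the DMSO mean, the largest fall (adjusted p = 3.65e-05 by limma).

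Summed over the 8 subunit genes, the level was 27.6 to 29.2 RPKM in Nutlin-3 libraries, against 52.5 to 57.2 RPKM in DMSO libraries. The ratio of the highest to the lowest subunit mean was 8.70 in Nutlin-3 and 5.90 in DMSO libraries. Part of some subunit genes is shared with other genes: 35.6% of the exon length of HAUS7 with TREX2, 9.71% of HAUS3 with POLN and 34.1% of HAUS4 with AL132780.3 and MIR4707 on the same strand, and 16.4% of HAUS2 with AC018362.2 on the opposite strand. The values of HAUS7 and HAUS4 are uncertain to that extent. Log2 fold changes on the recovered reads were -1.59 for HAUS8, -1.23 for HAUS5, -1.02 for HAUS1 and -0.71 for HAUS2 by limma voom.

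**Figure D4:**
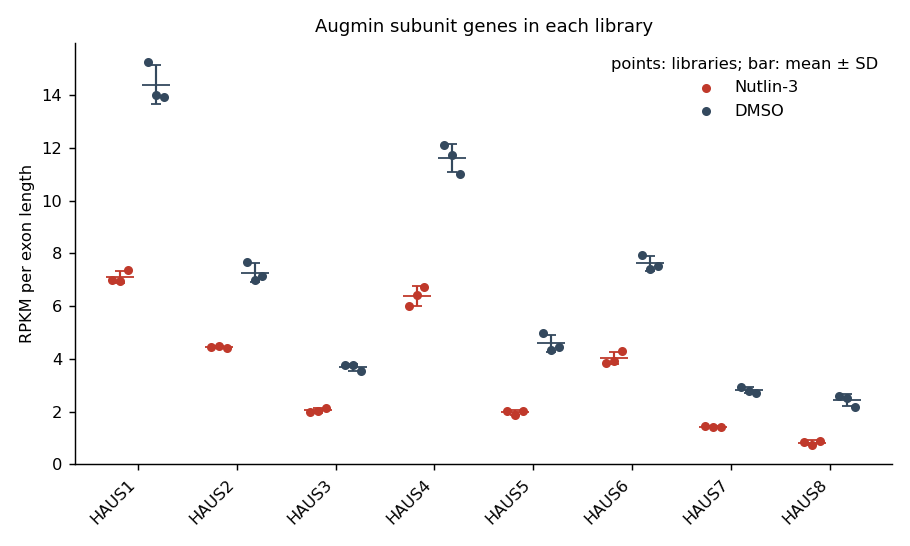
RPKM per exon length (y axis, from 0) of the 8 augmin subunit genes in each library, Nutlin-3 (red) left of DMSO (dark), bars for mean ± SD of 3 libraries. In each subunit gene the 3 Nutlin-3 points lie below the 3 DMSO points, with HAUS1 at 49.4% and HAUS8 at 33.5% of the DMSO mean.

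For 10 pairs of known partners, the log2 ratio of both levels was taken within each library, which largely cancels scaling between libraries, and compared with a 2-sided exact permutation test, in which 3 against 3 libraries cannot give a p under 0.1. On log2(RPKM + 0.5) the difference of a ratio between groups equals the difference between the log2 fold changes of both genes. The pairs therefore restate those fold changes and are not separate measurements. The ratio of CENPJ to CEP120 differed most, with -0.28, -0.28 and -0.13 in Nutlin-3 libraries, against 1.06, 1.05 and 0.92 in DMSO libraries, a difference of -1.24 (SE 0.0669). CEP152 over CEP63 was -0.62 ± 0.0549 in Nutlin-3 and 0.27 ± 0.0315 in DMSO libraries, a difference of -0.89 (SE 0.0366), and CEP192 over CEP152 was 1.37 ± 0.0246 in Nutlin-3 and 0.94 ± 0.0311 in DMSO libraries, a difference of 0.43 (SE 0.0229). CCP110 over CEP97 differed by 0.37 (SE 0.0578), CEP68 over CEP250 by 0.26 (SE 0.036) and HAUS8 over HAUS6 by -0.31 (SE 0.0678). CEP131 over PCM1 and CEP89 over CEP164 differed by -0.13 (SE 0.04) and -0.15 (SE 0.067). In these 8 pairs the groups did not overlap, and each gave the smallest exact p of 0.1 (0.125 adjusted over the 10 pairs). The share of other gene pairs without overlap was not computed, so the count of 8 is a description of these pairs alone. Without the pseudocount the difference was -0.66 for HAUS8 over HAUS6, 0.64 for CEP192 over CEP152 and 0.45 for CCP110 over CEP97, and the overlap between groups was as before in all 10 pairs. STIL over SASS6 was 0.19 ± 0.084 in Nutlin-3 and 0.16 ± 0.131 in DMSO libraries, a difference of 0.03 (SE 0.0897) with an exact permutation p of 0.9, and PCNT over CDK5RAP2 was 0.15 ± 0.0328 in Nutlin-3 and 0.08 ± 0.0502 in DMSO libraries, a difference of 0.08 (SE 0.0346) with an exact permutation p of 0.2. In both pairs the groups overlapped, which does not show that the ratios were equal.

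**Figure D5:**
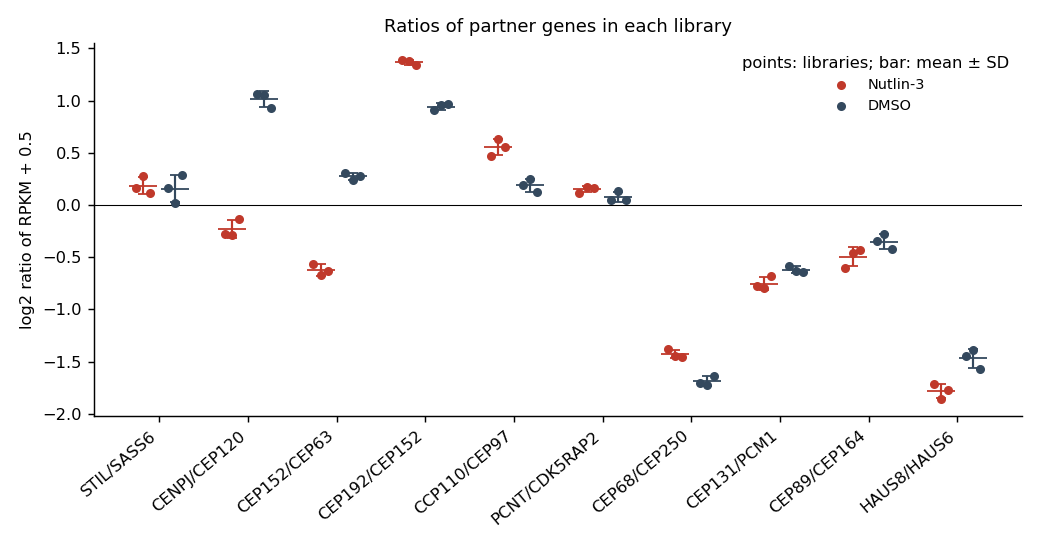
Log2 ratio of RPKM + 0.5 of 10 pairs of partner genes (y axis) in each library, Nutlin-3 (red) left of DMSO (dark), bars for mean ± SD of 3 libraries. CENPJ/CEP120 and CEP152/CEP63 lie below 0 in Nutlin-3 and above 0 in DMSO libraries, and STIL/SASS6 overlaps between the groups.

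A list of 61 further centrosome genes, of which 60 were matched and tested (TUBGCP5 was not), gave the context: 39 fell, 5 rose and 16 did not pass, with a median of -0.41. PLK4, the kinase that starts centriole duplication, averaged 2.45 ± 0.102 RPKM in Nutlin-3 libraries, against 9.73 ± 0.763 RPKM in DMSO libraries (SD, n = 3 each), 25.2% of the DMSO level, and changed by -1.79 (adjusted p = 1.89e-06 by limma), more than any of the 46 genes. The spindle pole proteins ASPM and WDR62 changed by -1.76 and -1.53. Those that rose included CEP85L (0.32), CETN2 (0.29), CEP170B (0.26) and KIAA0753 (0.15). The gamma-tubulin gene TUBG1 fell to 70.3% of its DMSO level, while TUBG2 stood at 98.1% and did not pass (adjusted p = 0.526 by limma). The ring subunits TUBGCP3 and TUBGCP4 fell to 56.9% and 70.4%, while TUBGCP2 and TUBGCP6 stood at 100% and 100% and did not pass (adjusted p = 0.891 and 0.996 by limma). MZT1, a small protein of the ring, fell to 49.3%, and MZT2A did not pass (adjusted p = 0.945 by limma). MZT2B stood at 115% and did not pass on RPKM (adjusted p = 0.0754 by limma), but rose on the recovered reads (adjusted p = 0.0163 by limma voom).

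Across the 46 genes, which share the same libraries, the log2 fold change did not follow the level in DMSO (Spearman rho = -0.08). The log2 fold change was weakly related to merged exon length (rho = 0.39, with smaller falls in genes of greater merged length). That length is not the length of a transcript. It also divides the RPKM, and the pseudocount understates the change of low genes. How much of the relation to length came from this was not tested. Mean levels in Nutlin-3 libraries ran from 0.816 RPKM for HAUS8 to 16.8 RPKM for CEP170, with a median of 3.46, and those in DMSO libraries from 2.06 RPKM for CEP76 to 17.2 RPKM for CEP170, with a median of 4.75.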

How the data were processed

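RNA of 6 RPE1 libraries was sequenced, 3 per group. The authors deposited RPKM values for 57773 gene IDs; CASAVA 1.8.2, TopHat2, edgeR and build hg19 are named per the submitters' processing notes, and no source used here gives the read counter, annotation release or strand setting. The deposited RPKM were per gene span, introns included: with the span in GENCODE 29, 90.6% of low values (up to 10 reads) were whole reads within 0.01, against 24.4% with the merged exon length. RPKM was therefore put on merged exon length (span over exon length). Reads were recovered as whole counts within 0.001 from the deposited RPKM, with the GENCODE 29 span for 34 of the 46 genes and another span that gave whole reads for 12. The library sizes behind the RPKM were 0.928 to 0.946 of the recovered reads in Nutlin-3 and 0.992 to 1.01 of them in DMSO libraries.

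Log2(RPKM + 0.5) of the 17258 genes averaging 0.5 RPKM or more was fitted with limma 3.58.1 in R 4.3.3 (group only, mean-variance trend), with Benjamini-Hochberg adjustment over all genes tested and a threshold of 0.05. Limma voom was run on recovered reads (mean of at least 10) with the library sizes behind the RPKM, so it shares the scaling of the main fit. Pair ratios were tested with SciPy 1.17.1, and figures were drawn with matplotlib 3.10.9. The limma and limma voom fits were tried on simulated counts with 200 changed genes, far fewer than were called here. Library pairs of the same group differed by a chi-square per gene of 1.89 to 5.16, so none was a duplicate.

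The genes, role groups and lists were chosen with earlier results of these data known. Every library is given for up to 3 called genes per role group with the largest change, for called genes changed by at least 0.5 (log2), and for the gene of each group with the largest change that did not pass, with CDKN1A, MDM2 and MKI67 as checks. Other genes are given by fold change; those given in full beyond this rule were chosen after their values were seen. Promoters are those of the 3 largest falls and, chosen after the motif search, of HAUS8 and CEP152. Pair ratios were also taken without the pseudocount. GENCODE 29 and RefSeq are on GRCh38, another build than the reads, and served only for names (52338 IDs matched), lengths, overlaps and promoters. PECAM1 and TUBGCP5 were not matched. Alternatives were other pseudocounts (0.1 and 1), filters, scalings, the deposited scale, voom, a replicate block and leaving out each library.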

Additional observations from a re-analysis of the deposited data

How the results depend on the processing

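On the deposited span scale, which leaves out genes long in introns (22 of the 46 genes have a mean under 0.5 there), 20 of 24 tested genes fell, as did 2745 of all 12212 genes and 19 of 35 other centrosome genes. CEP68 was at 0.0048 (log2) under quantile normalization, the only positive value of the 46 genes in any alternative. The call of CEP164 was lost under quantile normalization, with the replicate block (adjusted p = 0.0527 by limma) and without Nutlin-3 replicate 3, and CEP95 was called by limma voom, by voom with the replicate block (adjusted p = 0.028), added after the data were seen, and without DMSO replicate 3; the cause was not tested. Leaving out each library in turn gave 39 to 41 of the 46 genes down and 0 up, 8 augmin genes down, 3645 to 3931 genes down and 3882 to 4379 up among all genes, and 39 to 40 other centrosome genes down and 4 to 5 up. Same-numbered libraries did not deviate together (correlations of -0.09, -0.03 and 0.01, against up to 0.15 for other pairs), so the numbers were not taken to pair samples. With the replicate block 39 of the 46 genes fell, and 3929 genes fell and 4207 rose among all genes. With 3 libraries per group, a difference as small as that of CEP120 (-0.08, SE 0.0391) did not pass after adjustment over all genes tested.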

Other observations

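Among 4 genes of multiciliated cells, which make many centrioles at once, FOXJ1 was listed at 0 and DEUP1 lay near 0 in every library. MCIDAS, a regulator of that programme, had 0.984, 0.988 and 0.913 RPKM in Nutlin-3 libraries, against 1.89, 1.96 and 1.82 RPKM in DMSO libraries, and CCNO had 3.38, 3.27 and 3.00 RPKM in Nutlin-3 libraries, against 3.57, 3.84 and 4.45 RPKM in DMSO libraries. Both fell by limma (adjusted p = 8.69e-05 for MCIDAS and 0.0295 for CCNO). Their summed level with FOXJ1 and DEUP1 was 3.91 to 4.38 RPKM in Nutlin-3 and 5.47 to 6.27 RPKM in DMSO libraries.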
